A study of Rattus norvegicus with 40 samples.

Results

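The natriuretic peptide genes Nppa and Nppb and 8 genes of the fetal cardiac program and the sarcomere (Myh6, Myh7, Acta1, Actc1, Ankrd1, Tnnt2, Tnni1 and Tnni3) were followed in cultured neonatal rat ventricular myocytes. All probe sets whose gene symbol in the platform annotation was one of these 10 were taken, without regard to their values. They numbered 21 of the 31042 probe sets on the array. Of these, 14 carried 1 symbol and covered 9 genes, 5 were shared by Acta2 and Actc1, and 2 were shared by Myh7 and Myh6. Actc1 had no probe set of its own, so its signal could not be told apart from that of Acta2. All 21 probe sets passed the filter on dim values and were tested.

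Total RNA was measured on 40 Affymetrix rat genome arrays after coverslip hypoxia, a culture model in which cells lie under a glass coverslip, away from fresh oxygen and medium. One arm is labelled ischemia and the other ischemia+reperfusion, each with 0, 10, 30, 60 and 120 min, which gives 10 groups. There were 4 arrays in every group, from 2 preparations of cells with 2 duplicates each. The labels used here name no other treatment and no strain or genotype. Neonatal ventricular preparations of this kind also hold fibroblasts and endothelial cells. The labels do not give the length of the reperfusion, what the minutes cover, or whether duplicates were separate cultures, so p-values measure the spread between these samples, which may be technical.

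The natriuretic peptides ANP (Nppa) and BNP (Nppb) are secreted by heart muscle cells, act on guanylyl cyclase receptors, and lower blood volume and pressure. Both are expressed throughout the fetal heart, fall in the ventricle after birth and return under load or injury, together with other genes of the fetal program such as Myh7 and Acta1. In the rodent ventricle the switch after birth runs from Myh7 to Myh6, from skeletal to cardiac alpha-actin and from Tnni1 to Tnni3. Cultured neonatal myocytes stand in the middle of that switch.

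Nppb and Nppa lie next to each other on rat chromosome 5 in the RefSeq gene table. Myh6 and Myh7 are neighbours in the same way on chromosome 15. The 250 bases before the annotated start were read from RefSeq (build GRCr8, which is not the build of the array) for the 2 natriuretic peptide genes, as the pair that heads the list, and for Acta1, which has a low value on 1 array described below. Of the 10 genes, 9 had such a sequence. Capitals mark TATAAA (the TATA box), GATAA (a core bound by GATA factors), CATTCC (the M-CAT element of TEAD factors) and the CArG box of serum response factor. The CArG box was searched as CCWWWWWWGG, where W is A or T. Each was searched on both strands with no mismatch allowed.
Nppb, chr5:163699758-163700007, plus strand: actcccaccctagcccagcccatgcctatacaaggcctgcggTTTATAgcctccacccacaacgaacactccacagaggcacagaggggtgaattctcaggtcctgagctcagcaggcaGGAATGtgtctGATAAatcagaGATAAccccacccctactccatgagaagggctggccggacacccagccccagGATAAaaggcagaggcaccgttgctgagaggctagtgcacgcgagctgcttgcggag
Nppa, chr5:163711934-163712183, plus strand: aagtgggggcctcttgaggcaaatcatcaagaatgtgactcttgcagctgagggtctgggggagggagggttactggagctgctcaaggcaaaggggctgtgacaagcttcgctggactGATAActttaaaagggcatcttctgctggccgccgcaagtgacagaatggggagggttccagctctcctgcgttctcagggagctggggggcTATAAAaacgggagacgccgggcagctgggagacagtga
Acta1, chr19:68784195-68784444, minus strand: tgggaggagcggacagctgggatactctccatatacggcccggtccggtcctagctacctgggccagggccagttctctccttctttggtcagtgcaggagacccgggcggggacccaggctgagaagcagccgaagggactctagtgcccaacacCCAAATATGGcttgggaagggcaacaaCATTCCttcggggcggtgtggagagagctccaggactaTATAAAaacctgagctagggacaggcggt

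With -1 as the base before the start, Nppa held TATAAA from -39 to -34 and GATAA from -131 to -127. Nppb held 3 copies of GATAA, which began at -120, -109 and -57, and the reverse complement of CATTCC from -131 to -126. The TATAAA match of Nppb lay on the minus strand, from -208 to -203. Acta1 held TATAAA from -29 to -24, CATTCC from -67 to -62 and a CArG box from -94 to -85. It was the only one of the 9 genes with a sequence whose window held a CArG box in the exact form searched. Forms with a mismatch were not searched in any gene. Over all 33469 windows of this length, 12.9% held TATAAA, 23.5% GATAA, 12.1% CATTCC and 1.5% a CArG box. A match describes the letters and is not a measured site.

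The deposited intensities were linear, and 15.8% of all values were negative. Array medians ran from 101 to 171, so changes are given on quantile-normalized values as log2(value + 16), with the standard error (SE) from limma and n = 2 preparations per group. An adjusted p under 0.05 over the 18625 probe sets tested counted as passing. Some arrays stood apart, over all probe sets or in a single gene. The 0 min ischemia array of preparation 1, duplicate 1, correlated with the remaining arrays at a median r of 0.872, while this median was at least 0.96 for each of the rest. At 120 min, Hspa1a, the inducible heat shock protein 70, had a log2 value of 13.15 in the ischemia array of preparation 2, duplicate 2, against 9.62 to 10.19 in the other 3. In the ischemia+reperfusion array of preparation 2, duplicate 1, it was 9.75, against 13 to 13.25 in the other 3. These arrays of 120 min are called the Hspa1a pair below. They were picked on this gene alone, and whether their labels are exchanged was not tested. All arrays were kept, and results that rest on the outlying 0 min array or on this pair are also given without them.

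Nppa was at the top of the measured range in every array. It held a rank between 1 and 7 on all 40 arrays, was the brightest probe set on 15 of them, and lay between 92.6% and 100% of the brightest value of its array. The highest value in the whole table, 17404, was its own. Nppb held ranks 13 to 93, Ankrd1 (1367665_at) ranks 5 to 35, and bright Tnnt2 (1367592_at) ranks 12 to 74. Of the 21 probe sets, 14 were among the 200 brightest by mean. A brightness rank is not a ranking of RNA amounts, since probe sets differ in their response.

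**Figure D1:**
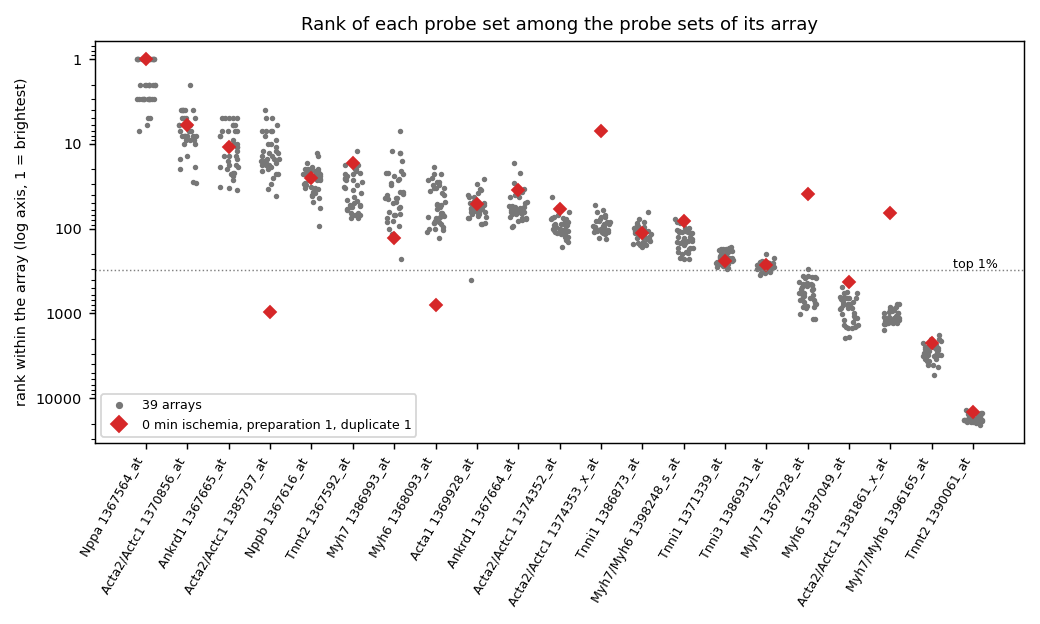
Rank of each of the 21 probe sets within its array (log axis, 1 is the brightest; the dotted line marks the top 1%), 1 grey point for each of 39 arrays and a red diamond for the 0 min ischemia array of preparation 1, duplicate 1. Nppa stays at ranks 1 to 7, and the red array lies apart from the others for probe sets of Myh6, Myh7 and Acta2/Actc1.

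The position of Nppa bounds what can be seen of it after normalization. Quantile normalization gives the same set of values to every array, so ranks 1 to 7 could take only log2 values from 13.652 to 13.799. In all 8 ischemia arrays at 30 and 60 min Nppa was the brightest probe set, and its normalized value was therefore the same, 13.799, with no spread. The coefficient of variation of Nppa over the 40 arrays was 11.2% as deposited and 2.86% after normalization. Relative to the mean of the other probe sets among the brightest 200 in each array, it was 6.12%. The members are therefore shown as deposited beside each normalized change. Deposited values near the top of the range can be compressed as well, which was not tested, so their differences may understate those of the RNA.

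At 0 min of ischemia Nppa had deposited intensities of 17024 and 14867 in preparation 1 and 17404 and 16153 in preparation 2. At 120 min of ischemia the values were 13761, 13425, 11925 and 13705. The 2 groups did not overlap as deposited. The share of all probe sets without overlap between these groups was not counted, for Nppa or for the genes below. In the ischemia+reperfusion arm, Nppa read 13209, 12627, 13290 and 13518 at 0 min and 12885, 12473, 11102 and 12419 at 120 min, and these groups overlapped. Across the ischemia arm the group means (± SD, n = 4 arrays) were 16362 ± 1126 at 0 min, 13775 ± 1044 at 10 min, 15634 ± 747 at 30 min, 15864 ± 701 at 60 min and 13204 ± 865 at 120 min. The 10 and 120 min groups were the low ones. The 120 min arrays lay below every array at 30 and 60 min, and the highest 10 min array (14759) lay above the lowest 30 min array (14689). In the other arm the means were closer, from 12220 ± 774 at 120 min to 13563 ± 478 at 10 min.

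After normalization Nppa differed from 0 min by -0.04, 0.01, 0.01 and -0.03 log2 units at 10, 30, 60 and 120 min of ischemia, each with an SE of 0.05. In the ischemia+reperfusion arm the changes were -0.01, 0.00, -0.06 and 0.01. None passed limma's test (adjusted p from 0.492 to 1 over both arms). On the deposited scale the fall at 120 min of ischemia was -0.31 ± 0.09 (SE) and passed (adjusted p = 0.0392; 18.3% of probe sets passed). On that scale all tested probe sets had a median of -0.22 in this comparison, and 186 other probe sets among the brightest 200 had a median of -0.27. Of these 186, 39 (21%) passed, all as lower.

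Nppb, the gene of BNP, read 13344, 12210, 13682 and 13459 at 0 min of ischemia and 11696, 11411, 9581 and 11817 at 120 min, again without overlap as deposited. In the ischemia+reperfusion arm it read 11316, 10722, 11551 and 9806 at 0 min and 10839, 10481, 9095 and 10158 at 120 min, with overlap. Its normalized changes against 0 min lay between 0.00 and 0.04 in ischemia and between 0.00 and 0.06 in ischemia+reperfusion, with an SE of 0.05 and intervals of 95% confidence from -0.11 to 0.17 in all. None passed (adjusted p from 0.628 to 0.988). On the deposited scale the 120 min ischemia change was -0.25 ± 0.10 (adjusted p = 0.0785). In the same comparison the median was -0.22 over all tested probe sets and -0.27 over 186 other bright ones. The lack of overlap therefore cannot be taken as particular to Nppb.

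**Figure D2:**
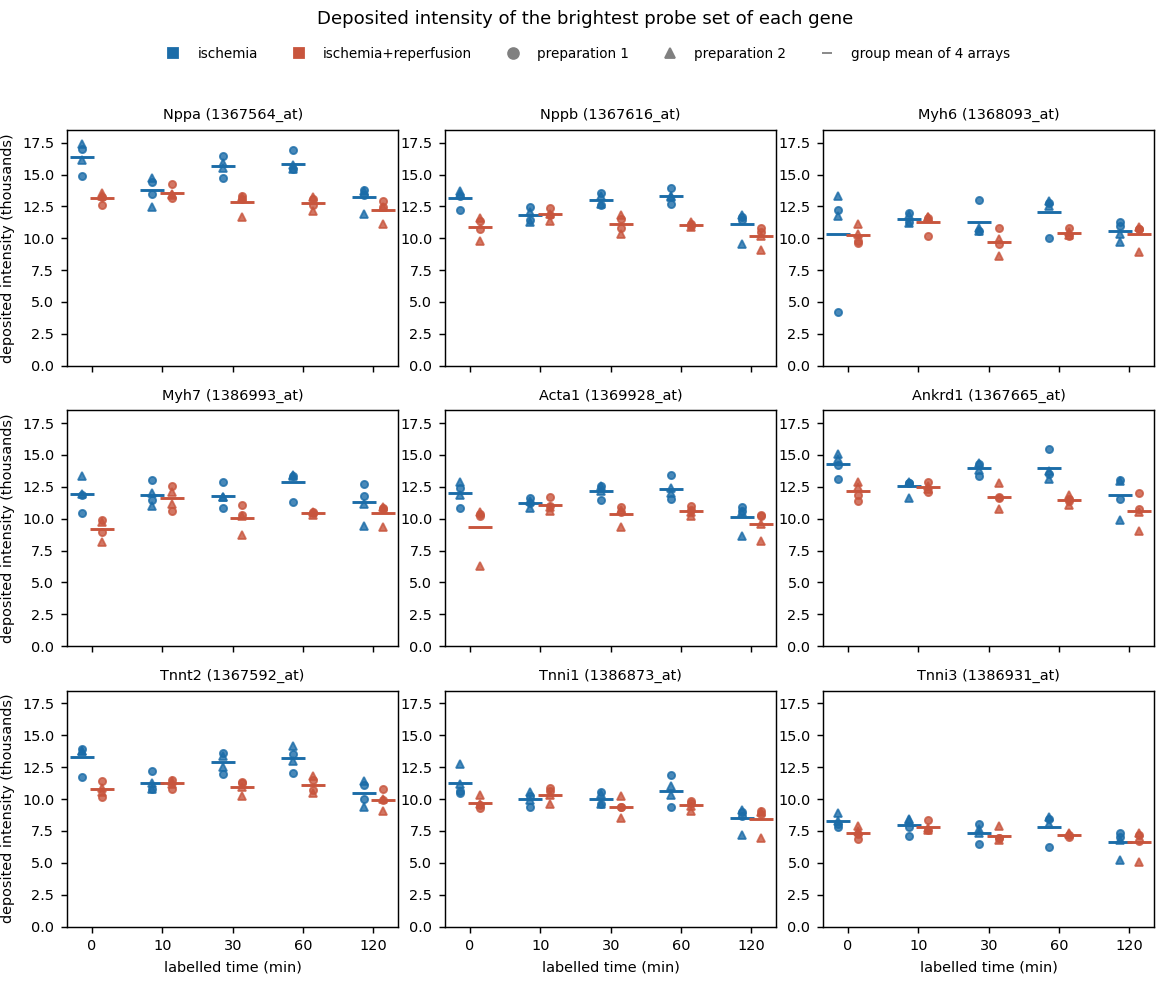
Deposited intensity in units of 1000 (axis from 0) of the brightest probe set of each of 9 genes against labelled time, ischemia in blue and ischemia+reperfusion in red, with a point for each array (circles preparation 1, triangles preparation 2) and a bar for the mean of 4 arrays. Nppa in ischemia has means of 16362 at 0 min and 13204 at 120 min, single low arrays appear for Myh6 (4195, 0 min ischemia) and Acta1 (6316, 0 min ischemia+reperfusion), and most group means lie higher in ischemia than in ischemia+reperfusion at 0, 30 and 60 min.

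Counted over the 9 genes by their brightest probe set, 0 passed at 10, 30, 60 or 120 min of ischemia against 0 min. Of all probe sets tested, 1.98% passed at 10 min, 0.0966% at 30 min, 0.129% at 60 min and 12.9% at 120 min. An unadjusted p under 0.05 was reached by 1, 0, 1 and 2 of the 9 genes. In the ischemia+reperfusion arm 0 passed at 10 min (background 0.0376%), 0 at 30 min (0.784%), 0 at 60 min (4.69%) and 1 at 120 min (7.17%, and 3.5% higher), the myosin gene Myh7; the unadjusted counts were 2, 1, 2 and 1. A gene count of 0 or 1 of 9 is not far from these backgrounds, but they are not matched to the 9 genes in brightness. Of 186 other probe sets among the brightest 200, 2 passed at 120 min of ischemia and 0 at 120 min of ischemia+reperfusion. At 60 min of ischemia+reperfusion 1 of the 186 passed, and at the remaining times 0 passed in either arm. In limma's F tests over all 4 times, 0 of 9 passed in ischemia (background 4.57%) and 0 of 9 in ischemia+reperfusion (3.61%). The half-width of the 95% interval had a median of 0.13 over the 9 genes (0.31 at most, for Myh6) and 0.26 over all probe sets. The narrower intervals are not a sign of better precision, since values at the top of the range have little room to vary after quantile normalization.

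**Figure D3:**
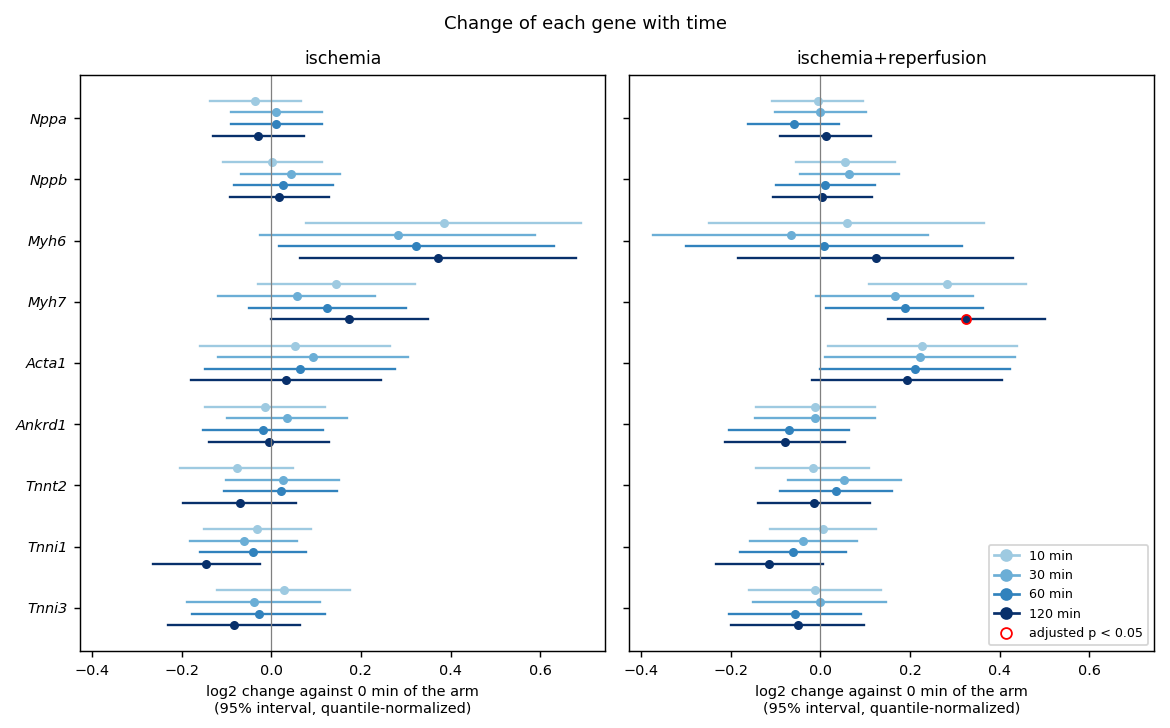
Change of the brightest probe set of each gene against 0 min of its arm, in log2 units of quantile-normalized values with 95% intervals from limma (n = 2 preparations per group), at 4 times in each arm. A red ring marks an adjusted p under 0.05, which Myh7 alone reaches, at 120 min of ischemia+reperfusion (0.32); Myh6 has the widest intervals.

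Ankrd1, a stress-responsive ankyrin repeat protein of the sarcomere and nucleus, had 2 probe sets. The brighter read 14202, 13082, 15111 and 14690 at 0 min of ischemia and 13006, 11568, 9871 and 12956 at 120 min, which did not overlap as deposited. In ischemia+reperfusion it read 11831, 11364, 12853 and 12481 at 0 min and 12025, 10785, 9048 and 10522 at 120 min, with 1 array at 120 min above the lowest 2 at 0 min. Its normalized changes were between -0.02 and 0.04 in ischemia and between -0.08 and -0.01 in ischemia+reperfusion, and the dimmer probe set moved by -0.04 to 0.06. No Ankrd1 change passed. The lack of overlap in ischemia stands beside a median of -0.22 over all tested probe sets on the deposited scale.

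Myh7 encodes the slow, beta isoform of the myosin heavy chain, the fetal form in the rodent ventricle. Its bright probe set (1386993_at) read 9861, 8940, 9747 and 8159 at 0 min of ischemia+reperfusion and 10826, 10787, 9331 and 10954 at 120 min. The groups overlapped through the 9331 array as deposited. After normalization they did not overlap, with log2 values of 12.991 to 13.321 at 0 min and 13.464 to 13.55 at 120 min. The rise was 0.32 ± 0.08 log2 units (SE), a fold of 1.25, with an interval from 0.15 to 0.50 and an adjusted p of 0.0358 in limma.

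The 0 min ischemia+reperfusion group was the low one, and Myh7 was also above it by 0.28 at 10 min (adjusted p = 0.187), 0.17 at 30 min (0.365) and 0.19 at 60 min (0.186). The call at 120 min did not hold on the deposited scale (0.19, adjusted p = 0.362), with arrays centred on their medians (0.23, adjusted p = 0.194) or with only the 2 groups in the fit (adjusted p = 0.249). It was also lost without either of 2 arrays of the 0 min group: preparation 1, duplicate 2 (0.30, adjusted p = 0.0559) and preparation 2, duplicate 2 (0.26, adjusted p = 0.0507). Without the Hspa1a pair the rise was 0.32 (adjusted p = 0.0337). The second Myh7 probe set (1367928_at) was at 0.23 ± 0.21 and did not pass (adjusted p = 0.548). In ischemia the bright probe set was at 0.17 at 120 min (adjusted p = 0.159), or 0.11 (adjusted p = 0.351) without the outlying 0 min array.

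At these 2 times in ischemia+reperfusion, the summed deposited intensity of the 10 cardiomyocyte markers on the array ran from 79752 to 88484 at 0 min and from 68732 to 85489 at 120 min. Of these markers 4 are members (Myh6, Myh7, Tnnt2 and Tnni3), so this sum is not independent of them. The 10 fibroblast markers summed to 49022 to 56378 and then 40957 to 54218, and the 8 endothelial markers on the array to 2004 to 2743 and then 2200 to 3188. The 8 macrophage and leukocyte markers summed to 6294 to 7970 and 4908 to 8381. The part of these in the Myh7 value was not tested, and in such bulk RNA fewer cells of a type and less RNA per cell cannot be told apart.

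Myh6 encodes the fast, alpha isoform, the adult form in the rat ventricle. In the 0 min ischemia group its bright probe set (1368093_at) read 4195 in preparation 1, duplicate 1, and 12201, 13288 and 11764 in the other 3 arrays. With all arrays, the differences of Myh6 from 0 min of ischemia were 0.38 ± 0.14, 0.28, 0.32 and 0.37 at 10, 30, 60 and 120 min (adjusted p from 0.0991 to 0.358). Without that array they were 0.02 ± 0.08, -0.08, -0.04 and 0.01 (adjusted p from 0.707 to 0.94). In ischemia+reperfusion, Myh6 was at 0.06, -0.07, 0.01 and 0.12, and none passed.

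The low Myh6 array did not stand alone among the members. On the same array the second Myh7 probe set (1367928_at) read 12706, against 5180 to 6982 in the other 3 arrays. The Acta2/Actc1 probe set 1385797_at read 3763, against 12872 to 15012, while 1381861_x_at of the same pair of genes read 11911, against 3813 to 4192. These 2 Acta2/Actc1 probe sets had exchanged levels. For Myh7 the dimmer probe set was far out of place, and the bright one read 10473 there, the lowest value of its group. For Myh6 the brighter one was far out of place, and the dimmer read 6036, its highest value over all arrays. Of 485 genes with exactly 2 tested probe sets whose means lay over 2 log2 units apart, the order was inverted for 65 (13.4%) on this array and for 0 to 2 on each of the other 39. Of probe sets that share their gene symbol with others, 13.7% deviated there by over 1 log2 unit from their group, against 2.38% of probe sets that are alone for their gene.

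**Figure D4:**
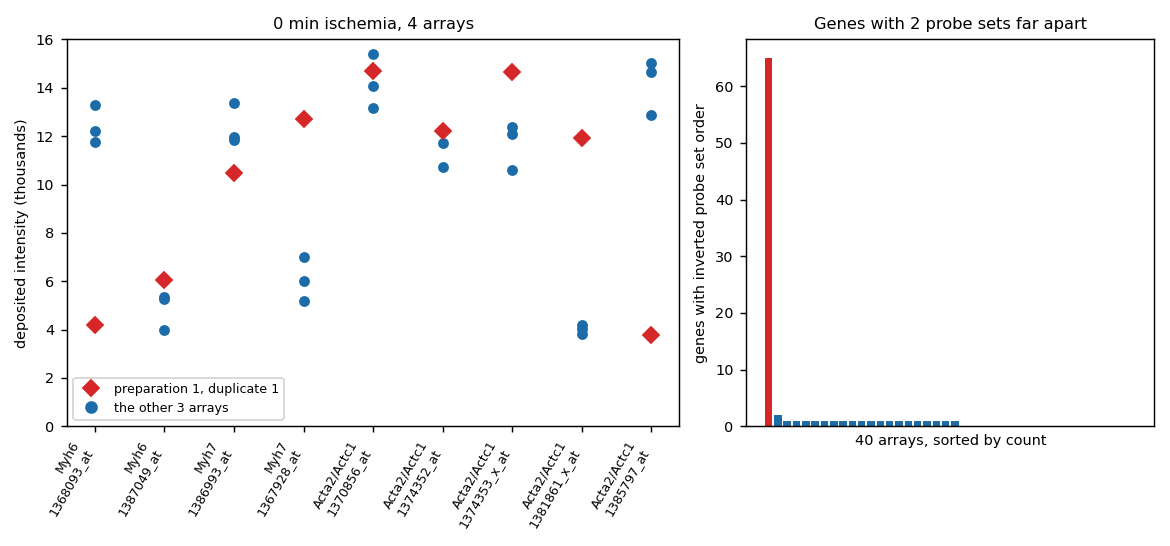
Left, deposited intensity in units of 1000 of the 9 probe sets with the symbol Myh6, Myh7 or Acta2/Actc1 in the 4 arrays of 0 min ischemia, preparation 1, duplicate 1, as red diamonds and the other 3 as blue points; Myh6 1368093_at is 4195 against 11764 to 13288. Right, for each of the 40 arrays, the number of 485 genes whose 2 probe sets stand in inverted order: 65 on the red array and at most 2 on the others.

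The difference between partner isoforms was also taken within each array, so that a factor common to an array cancels. Myh7 minus Myh6 at 120 min less its value at 0 min was -0.20 log2 units in ischemia (exact permutation test, 4 against 4 arrays, two-sided, p = 0.886) and 0.09 without the outlying array (exact p = 0.286 with 3 against 4). In ischemia+reperfusion it was 0.20 (exact p = 0.114, adjusted p = 0.343 over 4 tests), and 0.09 when duplicate 2 of preparation 2 at 0 min was left out. In that arm the 0 min arrays ran from -0.52 to 0.03 and the 120 min arrays from 0.01 to 0.06. The smallest p that 4 against 4 allows is 0.0286. This test takes the 4 arrays of a group as exchangeable and does not use the preparation, so where duplicates are repeat measurements of 1 culture its p is too small. For Tnni1 minus Tnni3 it was -0.06 in ischemia (exact p = 0.257) and -0.06 in ischemia+reperfusion (exact p = 0.171), with an adjusted p of 0.343 for each. The 2 probe sets shared by Myh7 and Myh6 were at -0.24 to 0.04 in ischemia and at -0.45 to 0.14 in ischemia+reperfusion, and none passed.

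Acta1, the skeletal alpha-actin that is expressed in the fetal and the stressed heart, read 10395, 10212, 10506 and 6316 at 0 min of ischemia+reperfusion. The last value, of preparation 2, duplicate 2, lay far below the other 3. Against this group Acta1 was at 0.23 ± 0.10 (SE) at 10 min, 0.22 at 30 min, 0.21 at 60 min and 0.19 at 120 min, and none passed (adjusted p from 0.218 to 0.399). Without that array the same changes were 0.03, 0.02, 0.01 and -0.01. In ischemia Acta1 read 12384, 10833, 12870 and 11862 at 0 min and 10940, 10607, 8601 and 10498 at 120 min, with a normalized change of 0.03 ± 0.10.

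The genes outside the list whose pattern over the 20 averages, centred within each preparation, was most like that of Acta1 were Cnn1 (calponin, r = 0.959), Fhl1 (a LIM protein of muscle, r = 0.934) and Pdlim7 (a PDZ and LIM protein of actin filaments, r = 0.9), out of 10474 genes. All 3 were low on the same array as Acta1, and the values of that array entered the correlation by which they were chosen. Cnn1 is also one of the smooth muscle markers listed here. On that array Cnn1 had a log2 value of 10.445, against 11.685 to 11.972 on the other 3 arrays of the group. Fhl1 was at 12.778 against 13.334 to 13.447, and Pdlim7 at 10.883 against 11.793 to 11.905. Acta1 itself was at 12.573 against 13.374 to 13.414. These correlations share the 40 arrays and their normalization, and describe these averages only. For Nppa the same rule gave Rpl37a (r = 0.869), Abi3 (0.859) and Pold1 (0.849), for Nppb it gave Gemin7 (0.844), Galnt18 (0.834) and Hspb3 (0.833), and for Ankrd1 it gave Pias4 (0.735), Tpgs1 (0.731) and Slco3a1 (0.713). For Myh7 it gave Igf1r (0.851), Nup210 (0.843) and Cspg4 (0.842). For Myh6 it gave Zfp142 (0.934), Gdf11 (0.928) and Arid1a (0.922), a pattern that carries the low 0 min array. The Nppb pattern carries a low value (13.318, against 13.497 to 13.523) on the same array as Acta1. Normalized Nppa could take only the values of ranks 1 to 7, often tied, and its averages had an SD of 0.035. Its closest genes therefore match small steps of rank.

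Actc1, the cardiac alpha-actin, was seen only through the 5 probe sets it shares with Acta2, the smooth muscle actin that cultured fibroblasts and immature myocytes also express. The brightest, 1370856_at, ranked 2 to 29 and read 14703, 13180, 15402 and 14078 at 0 min and 12600, 12566, 10465 and 13451 at 120 min of ischemia. These overlapped. Its normalized changes lay between -0.02 and 0.04 in ischemia and between -0.08 and -0.03 in ischemia+reperfusion. The 2 probe sets with exchanged brightness stood at 120 min of ischemia at 0.40 (1385797_at) and -0.42 (1381861_x_at) with all arrays, and at -0.02 and -0.0025 without the outlying one. None of the 5 passed in any comparison.

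The troponin genes encode the calcium switch of the thin filament. Tnnt2, the cardiac troponin T, had a bright probe set that read 13928, 11734, 13743 and 13739 at 0 min and 11073, 9973, 9391 and 11406 at 120 min of ischemia, without overlap as deposited. Its normalized changes lay between -0.08 and 0.03 in ischemia and between -0.02 and 0.05 in ischemia+reperfusion. Tnni1, the slow skeletal troponin I of the fetal heart, was at -0.14 ± 0.05 at 120 min of ischemia (adjusted p = 0.0981) and at -0.11 ± 0.05 at 120 min of ischemia+reperfusion (adjusted p = 0.226), which did not pass. Its second probe set was at -0.12 and -0.18 (adjusted p = 0.252 and 0.125). Tnni3, the adult cardiac troponin I, was at -0.08 ± 0.07 and -0.05 ± 0.07, and read 5094 to 8927 over all arrays. On the deposited scale, 120 min of ischemia gave -0.35 ± 0.10 for Tnnt2 (adjusted p = 0.03) and -0.41 ± 0.11 for Tnni1 (adjusted p = 0.0258). All tested probe sets had a median of -0.22 on that scale in this comparison, and 18.3% of them passed.

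A second, dim Tnnt2 probe set (1390061_at) passed between the arms at 60 min only. As deposited, the arms did not overlap at 10, 30 and 60 min, and overlapped at 0 and 120 min. At 10 min it read 121 to 191 in ischemia and 75.8 to 110 in ischemia+reperfusion. At 30 min it read 89.4 to 160 and 60.35 to 80.2. The share of all probe sets without overlap was not counted. The values of this probe set over all arrays ran from 49.1 to 191, beside array medians of 101 to 171. At 60 min it read 177, 140, 133 and 137 in ischemia and 76.1, 94, 93.5 and 118 in ischemia+reperfusion, with no overlap. The difference was -0.83 ± 0.19 log2 units (adjusted p = 0.0357 in limma; background 5.38% of probe sets, and 2.24% lower). At 0, 10, 30 and 120 min it was -0.72, -0.61, -0.72 and -0.39 (adjusted p from 0.107 to 0.73), and none of these passed. The bright Tnnt2 probe set differed by -0.07 at 60 min (adjusted p = 0.508). The call of the dim probe set was lost on the deposited scale (-0.55, adjusted p = 0.0972), with no filter on dim values (adjusted p = 0.0619), with only the groups compared (adjusted p = 0.185) and without the ischemia+reperfusion array of preparation 2, duplicate 1 (-0.76, adjusted p = 0.0546). Where in the transcript this probe set lies was not analysed here.

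Between the arms at equal time, 0 of the 9 genes passed by their brightest probe set. Of all probe sets tested, 0.333% passed at 0 min, 0% at 10 min, 0.532% at 30 min, 5.38% at 60 min and 0% at 120 min, with 3382, 1860, 2900, 4481 and 1333 probe sets at an unadjusted p under 0.05. The median difference of the 9 genes, ischemia+reperfusion minus ischemia, was -0.05, -0.02, -0.06, -0.07 and -0.03 at the 5 times. No member passed in the interaction of arm and time, where 0% of probe sets passed at 10, 30, 60 or 120 min (2284, 1072, 1989 and 1944 at an unadjusted p under 0.05) and 0.00537% in the F test over all 4.

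The deposited values showed a larger gap between the arms. All 4 Nppa arrays of ischemia lay above all 4 of ischemia+reperfusion at 0 min (14867 to 17404 against 12627 to 13518), at 30 min (14689 to 16473 against 11677 to 13344) and at 60 min (15408 to 16894 against 12121 to 13249), and the arms overlapped at 10 and 120 min. The array means of the 200 brightest probe sets, members included, also stood apart at 0 min (10727 to 12071 against 9622 to 10189). They overlapped at 30 min (10066 to 11437 against 8845 to 10493) and at 60 min (9932 to 12038 against 9752 to 10228). The share of all probe sets without overlap was not counted. On the deposited scale the difference of Nppa was -0.31 ± 0.09 at 0 min (adjusted p = 0.239), -0.28 at 30 min (0.131) and -0.31 at 60 min (adjusted p = 0.0472; 11.7% of probe sets passed, 0.435% lower). With each array centred on its median, 7 of the 9 genes passed as lower at 60 min, by 0.43 to 0.58 log2 units, while Myh6 (-0.47, adjusted p = 0.107) and Tnni3 (-0.37, adjusted p = 0.0551) did not. On that scale 7.33% of all probe sets passed and 4.69% were lower. Of the 186 other probe sets among the brightest 200, 160 (86%) passed as lower on it, with a median of -0.40, against -0.51 for the 9 genes and -0.06 for all probe sets.

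**Figure D5:**
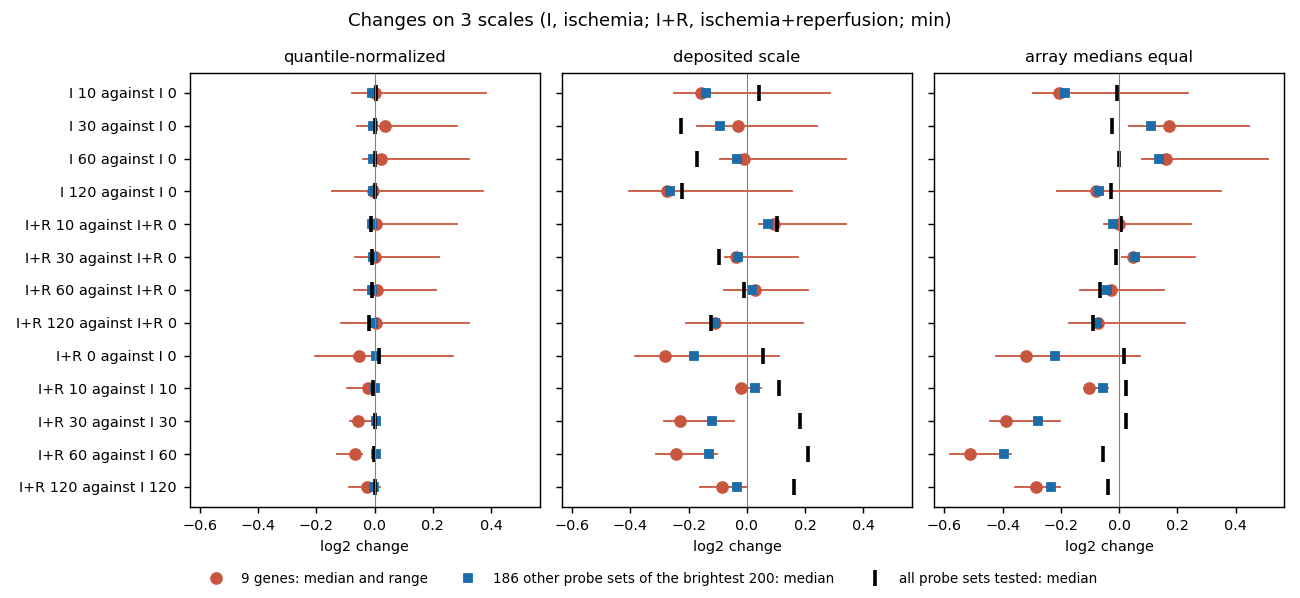
Log2 change in 13 comparisons on 3 scales (panels): median and range of the 9 genes by their brightest probe set (red), median of 186 other probe sets among the brightest 200 (blue squares) and median of all probe sets tested (black bars). On the quantile-normalized scale all medians lie near 0; with array medians made equal, ischemia+reperfusion against ischemia at 60 min is at -0.51 for the 9 genes and -0.40 for the other bright probe sets.

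The pairwise correlations of the 9 genes also depended on the scale. They were taken over the 20 averages, centred within each preparation. Over 36 pairs the median r was 0.692 as deposited (0.258 to 0.956) and 0.196 after normalization (-0.417 to 0.74). The points of each pair share the arrays and their overall brightness. The mean of the other probe sets among the brightest 200 ran from 7882 to 11949 per array.

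Genes that process and receive the natriuretic peptides formed a list of 13, with 11 on the array and 4 bright enough for the test. The share of all probe sets that passed was 12.9% at 120 min of ischemia and 4.69% and 7.17% at 60 and 120 min of ischemia+reperfusion. One rose at 120 min of ischemia, Npr2, the receptor of the related peptide CNP, by 0.43 ± 0.10 (adjusted p = 0.0216; 0.20 with an adjusted p of 0.329 on the deposited scale). Ide, a protease that degrades natriuretic peptides and insulin, fell by 0.29 ± 0.07 at 60 min (adjusted p = 0.0341) and by 0.27 ± 0.07 at 120 min (adjusted p = 0.035) of ischemia+reperfusion. Without the preparation block those Ide calls were lost (adjusted p = 0.151 and 0.155), as they were on the deposited scale (adjusted p = 0.255 and 0.0854). The one at 120 min was also lost without the Hspa1a pair (adjusted p = 0.0638). The list's median change was 0.18 at 120 min of ischemia and -0.11 and -0.04 at 60 and 120 min of ischemia+reperfusion, beside 0.00, -0.01 and -0.02 over all probe sets.

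Of 31 cardiac transcription factors and regulators of hypertrophy, 29 were on the array and 24 tested. In ischemia 0 passed at any time. In ischemia+reperfusion 0 passed at 10 min, 1 fell at 30 min, 1 rose and 2 fell at 60 min, and 2 fell at 120 min. These are counts of 24, and over all probe sets 0.784%, 4.69% and 7.17% passed at 30, 60 and 120 min, so the 2 at 120 min are close to the background. The median change of the list at these times was -0.04, -0.06 and -0.11, beside -0.01, -0.01 and -0.02 over all probe sets. Hopx, a homeodomain protein without DNA binding that acts with Srf and Nkx2-5, fell by 0.57 ± 0.11 at 30 min (adjusted p = 0.0453, and 0.0686 without the block), by 0.58 at 60 min (adjusted p = 0.0201) and by 0.52 at 120 min (adjusted p = 0.0246). Nkx2-5, a cardiac homeodomain factor that activates Nppa, fell by 0.29 ± 0.08 at 120 min (adjusted p = 0.0409). That call was lost without the Hspa1a pair (adjusted p = 0.261) or without the block (adjusted p = 0.0552). Agtr1a, an angiotensin receptor, fell by 0.78 ± 0.18 at 60 min (adjusted p = 0.0356, and 0.0569 without the block). Nfatc1, a calcineurin-dependent factor, rose by 0.66 ± 0.14 at 60 min (adjusted p = 0.0253) and was higher than in ischemia at 60 min by 0.79 (adjusted p = 0.0155); both calls were lost without the block (adjusted p = 0.203 and 0.122). On the deposited scale Hopx was at -0.64, -0.60 and -0.66 and did not pass (adjusted p = 0.14, 0.102 and 0.0547).

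Of 25 other sarcomere genes, 23 were on the array and 21 tested. At 120 min of ischemia 1 rose and 2 fell, and at 60 and 120 min of ischemia+reperfusion 1 rose and 0 fell. Of all probe sets 12.9%, 4.69% and 7.17% passed in these comparisons, so the counts of 21 are close to the background. The median change of the list was -0.04, 0.02 and -0.01, beside 0.00, -0.01 and -0.02 over all probe sets. The riser was Xirp1, an actin-binding protein of the intercalated disc, each time: by 0.67 ± 0.09 in ischemia (adjusted p = 0.00394), and by 0.79 ± 0.09 (adjusted p = 0.00546) and 0.78 ± 0.09 (adjusted p = 0.00353) in ischemia+reperfusion. Its values on the deposited scale were 0.47, 0.74 and 0.61 (adjusted p = 0.0397, 0.0306 and 0.05). Myl4, the atrial and fetal essential light chain, fell by 0.38 ± 0.11 at 120 min of ischemia (adjusted p = 0.0422, and 0.0515 without the block), and Mylk3, the cardiac myosin light chain kinase, fell by 0.55 ± 0.12 (adjusted p = 0.018). Myom1, an M-band protein, was lower in ischemia+reperfusion than in ischemia at 60 min by -0.38 (adjusted p = 0.043, and 0.0573 without the block).

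Of 14 genes of adult metabolism and calcium handling that are known to fall in hypertrophy, 13 were tested. One rose at 10 min of ischemia, and 2 rose and 1 fell at 120 min, where 1.98% and 12.9% of all probe sets passed. The median change of the list was 0.29 and -0.05 (0.15 and -0.05 without the outlying 0 min array), beside 0.00 at both times over all probe sets. Slc2a4, the insulin-responsive glucose transporter GLUT4, rose by 0.95 ± 0.15 at 10 min (adjusted p = 0.0208) and 0.52 ± 0.15 at 120 min (adjusted p = 0.0422), and Kcnd2, a potassium channel, by 0.36 ± 0.11 (adjusted p = 0.0481). Without the outlying 0 min array these calls were lost (0.67, 0.24 and 0.27; adjusted p = 0.0761, 0.375 and 0.0943). Acadm, an enzyme of fatty acid oxidation, fell by 0.24 ± 0.07 at 120 min (adjusted p = 0.0455, and 0.271 without the block).

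The labelled cell type was checked against markers. The 10 cardiomyocyte markers on the array, of 11 listed, were all tested, and 1 of them, Myh7, rose at 120 min of ischemia+reperfusion. Of 10 fibroblast markers all were tested, of 9 endothelial markers 6, of 6 smooth muscle markers 6, of 8 macrophage and leukocyte markers 8, of 8 skeletal muscle markers 3, of 5 atrial markers 4 and of 3 erythroid markers 0. At 120 min of ischemia, where 12.9% of all probe sets passed, 3 of 6 endothelial markers rose: Pecam1 by 1.04, Tie1 by 0.52 and Tek by 0.33 (adjusted p = 0.0208, 0.0102 and 0.0157, and 0.131, 0.188 and 0.137 without the block). So did 2 of 10 fibroblast markers, Pdgfra by 0.45 and Fbln1 by 0.43, and 1 of 6 smooth muscle markers, Smtn by 0.41, counts close to that share; without the block these 3 did not pass (adjusted p = 0.174, 0.132 and 0.0756). The Pdgfra call was lost without the outlying 0 min array (adjusted p = 0.0805), and that of Smtn without the Hspa1a pair (adjusted p = 0.153). The tested endothelial markers had a median change of 0.47 in this comparison (0.30 to 1.04). The median was 0.14 for the fibroblast markers (-0.18 to 0.45) and 0.05 for the smooth muscle markers (-0.44 to 0.41). For the 10 cardiomyocyte markers it was -0.07 (-0.42 to 0.37), and 0 passed. In ischemia+reperfusion 1 of 8 macrophage and leukocyte markers, Mrc1, fell by 0.75 at 60 min and by 0.69 at 120 min, where 4.69% and 7.17% of all probe sets passed (adjusted p = 0.0274 and 0.0295, and 0.182 and 0.2 without the block). Other markers of this list went the other way. Its changes ran from -0.87 to 0.52 at 60 min (median -0.10) and from -0.69 to 0.59 at 120 min (median 0.03). Summed over the 8 endothelial markers on the array, intensity was 1679 to 2727 at 0 min and 1877 to 3093 at 120 min of ischemia, beside 87432 to 109120 and 70427 to 88888 for the cardiomyocyte markers. The part of these in the members' values was not tested.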

How the data were processed

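RNA from neonatal rat ventricular myocytes was extracted on spin columns and amplified to biotinylated cRNA, per the labels' protocols. The authors deposited linear intensity values per probe set. How probe signals were summarized into them is not given in the sources used here. Values were quantile-normalized between arrays, floored at 0 and taken as log2(value + 16), which understates the changes of dim values. The test covered those with a mean above the 40th percentile. Duplicates were averaged per group and preparation (20 values), and all 10 groups were fitted with limma 3.58.1 (R 4.3.3), with preparation as a block and 9 residual degrees of freedom; p-values were adjusted by Benjamini-Hochberg within a comparison. The preparation comes from the labels; the difference between both preparations had a median r of 0.184 from one group to another, above 0.1 in 34 of 45 pairs. The number of arrays limits the precision.

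The members, lists, tests and alternatives were chosen with earlier results of these data known. All 10 genes with every probe set were named, the brightest probe set standing for a gene in counts. From each list, genes that passed were named, and for 6 genes the 3 outside genes with the highest Pearson r. Gene symbols came from the platform annotation and promoters from RefSeq. The fit was tested on simulated data. Alternatives were the scale, pseudocount, filter, block, duplicates, moderation, samples in the fit and arrays left out; their effect is given at the end.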

Additional observations from a re-analysis of the deposited data

Results flagged for a closer look

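Within groups of 4 arrays, 12 of the 210 member values tested had an array far from the other 3, by Dixon's criterion at 95%. Chance flags about 1 in 20. The values are log2 of the normalized intensity. On the 0 min ischemia array of preparation 1, duplicate 1, Myh6 1368093_at was at 12.074 (13.382 to 13.516 in the other 3), Acta2/Actc1 1385797_at at 11.916 (13.596 to 13.652) and 1381861_x_at at 13.4 (11.736 to 11.985). In ischemia+reperfusion at 0 min (preparation 2, duplicate 2), Acta1 was at 12.573 (13.374 to 13.414) and Nppb at 13.318 (13.497 to 13.523). The second Myh6 probe set (1387049_at) was at 12.064 (12.22 to 12.239) on the 10 min ischemia array of preparation 2, duplicate 2, and at 12.333 (11.982 to 12.007) on the 60 min one. The Myh7/Myh6 probe set 1398248_s_at was at 13.336 (13.264 to 13.273) at 10 min of ischemia, Ankrd1 at 13.664 (13.615 to 13.622) at 0 min of ischemia, and Tnnt2 at 13.388 (13.528 to 13.545) at 30 min of ischemia+reperfusion. Nppa was at 13.753 in 2 groups, at 0 min of ischemia (13.799 in the other 3) and at 10 min of ischemia+reperfusion (13.729 in the other 3); in both the other 3 arrays were tied at 1 rank.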

How the results depend on the processing

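Counts are of the 9 genes passing. At 120 against 0 min of ischemia the count of 0 became 3 on the deposited scale (Nppa, Tnnt2 and Tnni1). The background there was 18.3%, and 21% of 186 other bright probe sets passed. The same count became 1, Tnni1, with no filter, with 40 arrays as samples and with trend and robust moderation. At 10 against 0 min of ischemia+reperfusion it became 1 (Myh7) with 40 arrays. At 120 against 0 min of ischemia+reperfusion the count of 1 became 0 on the deposited scale, with arrays centred on the median and with only the groups compared, 2 (Myh7 and Tnni1) with 40 arrays, and 0 to 1 when single arrays were left out. Between the arms at 60 min the count of 0 became 1 (Nppa) on the deposited scale, with no filter, with 40 arrays and with trend and robust moderation, 1 (Tnnt2) with every probe set counted, and 7 with arrays centred on the median. For the F test over time it became 1 in ischemia with centring (Tnnt2) and with 40 arrays (Tnni1), and 1 in ischemia+reperfusion with 40 arrays (Myh7). The within-array difference of Myh7 and Myh6 in ischemia+reperfusion ran from 0.0857 to 0.2708 when single arrays were left out, the lowest when duplicate 2 of preparation 2 at 0 min was left out and the highest when duplicate 1 of preparation 1 was (exact permutation p = 0.0286 at 0.2708, and 0.114 with all). The cause was not tested. Without the replicate block the Myh7 rise at 120 min of ischemia+reperfusion was 0.3249 (adjusted p = 0.0482) and no call of a member changed (238 of 238 values for probe sets with 1 symbol). The planned difference of Acta1 and Actc1 was not run, since Actc1 has no probe set of its own, and dim signal over background limits the second Tnnt2 probe set.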
